A study of Rattus norvegicus with 20 samples.

Results

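Expression of 10 genes of iron uptake, storage, export and sensing was followed in the insulin-secreting rat line INS-1, which came from an insulinoma and is a common model of beta cells. The genes are Tfrc, Slc11a2, Steap3, Fth1, Ftl1, Ncoa4, Slc40a1, Aco1, Ireb2 and Fbxl5, and all 10 had a probe set with exactly 1 gene symbol among the 18166 genes so represented on the Rat Gene 2.0 array. They were listed for their roles in iron handling when earlier results of these arrays were known, among them the lower Tfrc value in C4BP than in IAPP wells, which is therefore given as a description. The same C4BP arrays enter C4BP vs DMSO, C4BP vs C4BPD and the F test. The Tfrc values there, and counts of members that include Tfrc, are therefore not independent of what was known. Probe sets were chosen by mean brightness over all 20 arrays, which decided between 2 probe sets for Fth1. No other measured value entered the choice of probe sets.

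Titles divide the 20 arrays into C4BP, C4BPD, IAPP and DMSO wells, 5 of each. Islet amyloid polypeptide (IAPP), a beta-cell hormone that forms amyloid, was added at 77 uM in monomeric form, and C4BP (C4b-binding protein), which inhibits complement in plasma, at 0.6 uM, while 1% DMSO is the solvent of IAPP. The likely reading of the titles, from the 4 conditions in the series description, is IAPP together with C4BP for wells titled C4BP, C4BP without IAPP for C4BPD, IAPP alone for IAPP, and solvent alone for DMSO. All wells held the same line, kept as 5 separate clones for 10 passages, and RNA was taken after 10 h. The labels do not say that a replicate number is a clone, so the p-values measure the spread between these wells. Titles also carry a running array number. By it the arrays of a replicate number follow each other, with a well of each group in the same order, as in a blocked layout. The treatment field of the samples gives another assignment and matches the titles, under that reading, on 3 of 20 arrays, so every comparison here rests on the titles. In the order of the sample records this field repeats IAPP, IAPP + C4BP, C4BP and DMSO in turn, whatever the title. Under that reading, the 4 title groups follow the same order by running array number.

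Array medians ran from 170.0 to 182 intensity units, and no 2 arrays held identical values. All 7 measured beta-cell markers lay above the median gene (Ins1 averaged 5915, Ins2 4501 and the lowest, Nkx6-1, 448). Of the other markers, 0 of 7 for macrophages, 0 of 4 for hepatocytes and 0 of 6 for fibroblasts did. The 23 background probe sets averaged up to 1045. Slc40a1, Steap3, Hmox1, Hamp, Slc7a11, Zc3h12a, Ankrd37, Pfkfb3 and Nkx6-1 were below that in all 4 groups, and Bach1, Myc, Nqo1 and Slc39a14 in at least 1. These genes were not shown to be above background there. The number of arrays limits the precision. In a bulk culture, fewer cells of a state and less RNA per cell cannot be told apart.

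Cells import iron mainly as transferrin, which binds the transferrin receptor Tfrc and is taken into endosomes. There Steap3 reduces the iron and Slc11a2 (DMT1) carries it to the cytosol. Surplus iron is kept in ferritin, built from the heavy chain Fth1 and the light chain Ftl1, is released when Ncoa4 takes ferritin to lysosomes, and leaves the cell through ferroportin, Slc40a1. When iron is low, the iron regulatory proteins Aco1 (IRP1) and Ireb2 (IRP2) bind iron-responsive elements in some of these mRNAs, including Tfrc and ferritin. This binding stabilises Tfrc mRNA and blocks translation of ferritin mRNA. Fbxl5 directs the iron-dependent degradation of Ireb2. Ferritin protein is therefore set largely by translation, which arrays do not measure.

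Tfrc was lower in C4BP and C4BPD wells than in DMSO wells, and it was lower in C4BP than in C4BPD wells. The transporter Slc11a2 was lower in C4BPD than in DMSO wells and in C4BP than in IAPP wells, by a smaller amount. Ftl1 and Slc40a1 were higher in C4BP than in DMSO wells, whereas Fth1, Ncoa4, Aco1, Ireb2 and Fbxl5 passed in none of the 5 comparisons. In C4BP vs DMSO 3 of the 10 genes passed (limma, adjusted p under 0.05 over all genes), 2 higher and 1 lower, while 5.96% of all genes passed, 2.72% higher and 3.23% lower. C4BPD vs DMSO had 2 of 10, both lower, against 1.93% of all genes past the threshold and 0.765% lower. C4BP vs IAPP had 2 of 10, both lower, against 0.606% of all genes and 0.231% lower, and Tfrc was 1 of these 2. C4BP vs C4BPD had 3 of 10, 2 higher and 1 lower, against 2.37% of all genes, 0.754% higher and 1.62% lower. IAPP vs DMSO had 0 of 10, with 3 (Slc11a2, Ftl1 and Slc40a1) at an unadjusted p under 0.05 and 3.38% of all genes past the threshold. An unadjusted p under 0.05 was common. Ranked by limma p, Tfrc at 0.0554 in IAPP vs DMSO was only number 2358 of 18166 genes. Fbxl5 at 0.0502 in C4BP vs DMSO was number 2952. Counts at an unadjusted p, here and below, are therefore no calls. Arrays of the compared groups did not overlap for 3 of the 10 genes in C4BP vs DMSO, where 6.13% of all genes did not. The same held for 3 genes in C4BPD vs DMSO (3.82% of all genes), 2 in C4BP vs IAPP (2.38%), 4 in C4BP vs C4BPD (3.73%) and 0 in IAPP vs DMSO (4.83%). In the moderated F test across the 4 groups, Tfrc, Slc11a2, Ftl1 and Slc40a1 passed, 4 of 10, beside 7.85% of all genes. Comparisons with DMSO share the same 5 DMSO arrays and are not independent of each other.

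**Figure D1:**
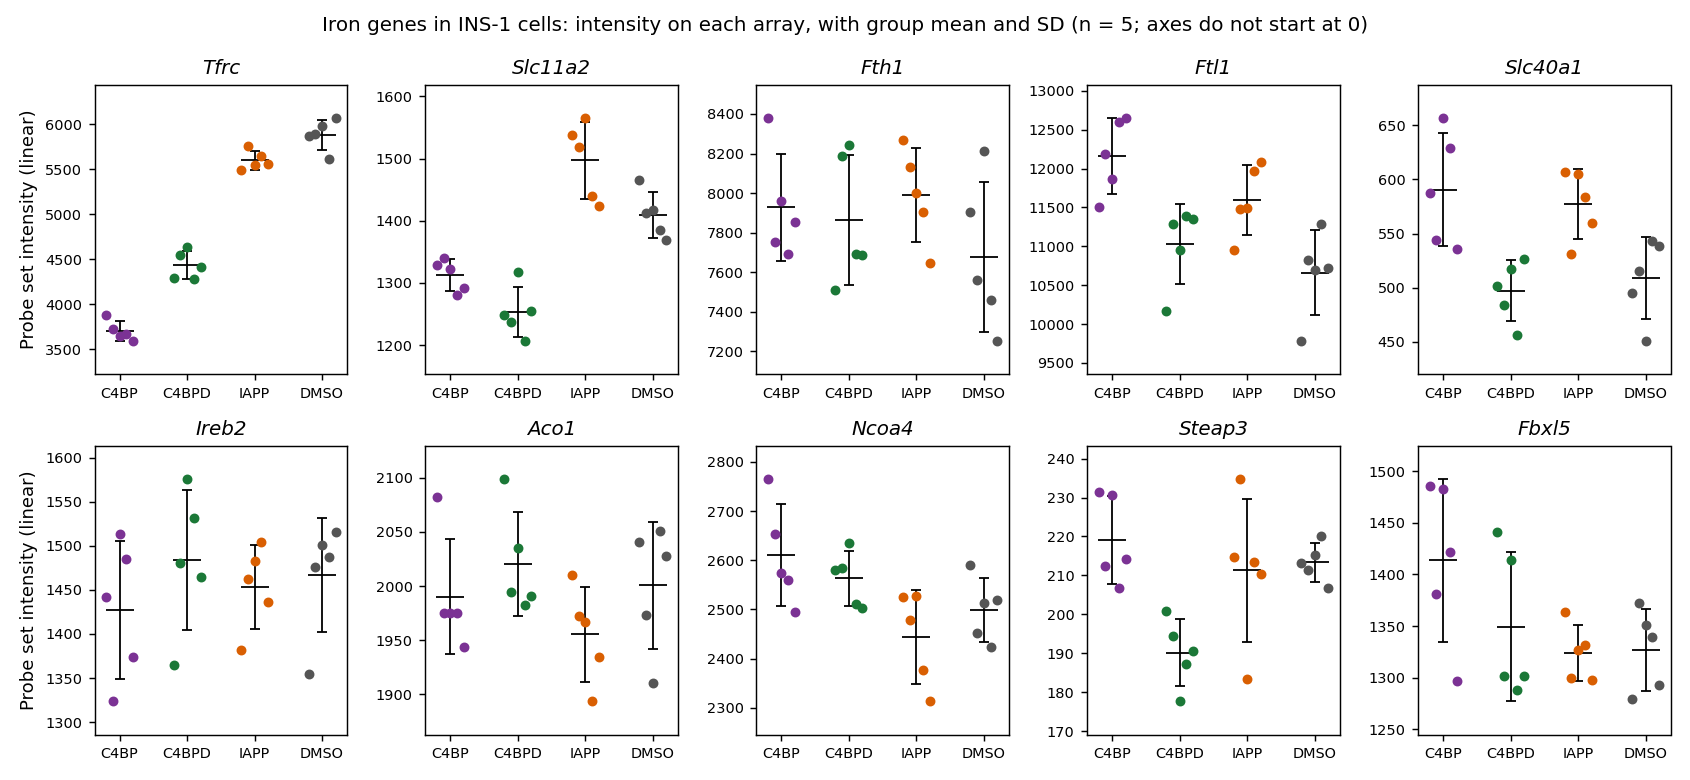
Intensity of the 10 iron genes on each array (points, in replicate order within a group), with the group mean and SD (n = 5 each) as bars, for C4BP, C4BPD, IAPP and DMSO wells. Tfrc falls in separate bands, at 3598 to 3882 in C4BP and 4281 to 4637 in C4BPD wells, below 5486 to 5756 in IAPP and 5608 to 6063 in DMSO wells, and the vertical axes do not start at 0.

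Tfrc, which brings transferrin-bound iron into the cell, had the largest difference of the 10 genes in each of the 4 comparisons where it passed. In replicate order, the Tfrc probe set read 3882, 3727, 3649, 3672 and 3598 in C4BP wells and 4290.0, 4543, 4637, 4281 and 4410.0 in C4BPD wells. It read 5486, 5756, 5544, 5647 and 5555 in IAPP wells, against 5866, 5885, 5973, 5608 and 6063 in DMSO wells. Every C4BP array was below every C4BPD array, and every C4BPD array was below every IAPP and DMSO array, while IAPP and DMSO wells overlapped. Means were 3706 ± 109 in C4BP, 4432 ± 156 in C4BPD, 5597 ± 106 in IAPP and 5879 ± 171 in DMSO wells (SD, n = 5 each). The level in C4BP wells was 0.63 of that in DMSO wells as a ratio of geometric means (log2 difference -0.67 ± 0.03 SE; limma, adjusted p = 1.07e-10). The ratio of C4BPD to DMSO was 0.754 (-0.41; adjusted p = 3.53e-07), and that of C4BP to IAPP, known beforehand, was 0.662 (-0.60).

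Tfrc also differed between C4BP and C4BPD wells. C4BP wells were below C4BPD wells by 0.26 on the log2 scale (-0.26; 95% interval -0.33 to -0.19; limma, adjusted p = 0.00014), with no overlap between the groups. IAPP against DMSO gave -0.07 (95% interval -0.14 to 0.00; adjusted p = 0.427), which did not pass. The test of the difference between these 2 effects, (C4BP minus C4BPD) minus (IAPP minus DMSO), gave -0.19 (95% interval -0.29 to -0.09), at an unadjusted p of 0.00105 and an adjusted p of 0.47 over all genes. That is no call, so the effects were not shown to differ. None of the 10 genes passed this interaction test, 2 of them (Tfrc and Steap3) had an unadjusted p under 0.05, and 0.0495% of all genes passed. The 3 Tfrc calls in C4BP vs DMSO, C4BPD vs DMSO and C4BP vs C4BPD stayed past the threshold in each of the 20 fits that left out 1 array and the 5 that left out all arrays of 1 number.

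Slc11a2, the iron transporter of endosomes and of the cell surface, was lower in C4BPD than in DMSO wells and in C4BP than in IAPP wells. In replicate order, the Slc11a2 probe set read 1329, 1339.5, 1323, 1281 and 1292 in C4BP wells and 1248, 1237, 1318, 1207 and 1255 in C4BPD wells. It read 1538, 1519, 1565, 1441 and 1423 in IAPP wells, against 1465, 1412, 1418, 1385 and 1369 in DMSO wells. All 10 C4BP and C4BPD arrays were below all 10 IAPP and DMSO arrays. Means were 1313 ± 25.2 in C4BP, 1253 ± 40.6 in C4BPD, 1497 ± 62 in IAPP and 1410 ± 36.8 in DMSO wells (SD, n = 5 each). C4BPD wells were 0.17 lower on the log2 scale than DMSO wells (-0.17; limma, adjusted p = 0.013), and C4BP wells 0.19 lower than IAPP wells (-0.19; adjusted p = 0.0141). Against DMSO, C4BP wells differed by -0.10 (95% interval -0.18 to -0.03), which did not pass (adjusted p = 0.112), and IAPP wells by 0.09 (0.01 to 0.16; adjusted p = 0.291). The C4BP vs IAPP call was lost without IAPP 3 (adjusted p = 0.0579). With arrays centred on their median, the C4BPD vs DMSO and C4BP vs IAPP calls ended at adjusted p = 0.0793 and 0.109. Slc11a2 mRNA exists with and without an iron-responsive element, and 1 probe set does not separate these forms.

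Steap3, the ferrireductase of the endosome, was a dim probe set at a mean of 208, near the median probe set of the array (178), and was not shown to be above background. In replicate order, the Steap3 probe set read 231, 212, 231, 207 and 214 in C4BP wells and 201, 194, 178, 187 and 191 in C4BPD wells. It read 215, 235, 183, 213 and 210.4 in IAPP wells, against 213, 211, 215, 220.1 and 207 in DMSO wells. The 5 C4BPD arrays were below all C4BP and all DMSO arrays and overlapped the IAPP wells, where 1 array read 183. C4BP wells were 0.20 higher on the log2 scale than C4BPD wells (95% interval 0.09 to 0.32; limma, adjusted p = 0.0461). C4BPD against DMSO gave -0.17 (-0.28 to -0.06; adjusted p = 0.137), and C4BP against IAPP 0.05 (-0.06 to 0.17; adjusted p = 0.953). The C4BP vs C4BPD call remained past the threshold in 4 of the 20 fits without 1 array, those without C4BP 4, C4BPD 1, IAPP 2 or IAPP 3, and its adjusted p ran up to 0.129 in the others. It was also lost with quantile normalization (0.073), array weights (0.0602), arrays centred on the median (0.102), all probe sets tested (0.109) and only the compared groups fitted (0.0874), 5 of 8 other alternatives.

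Of the ferritin genes, Ftl1 passed in C4BP vs DMSO and Fth1 in no comparison, and no test compared these genes with each other. Ftl1, the ferritin light chain, was higher in C4BP wells than in DMSO wells. In replicate order, the Ftl1 probe set read 11506, 12187, 11865, 12596 and 12646 in C4BP wells and 10170.1, 11282, 10946, 11392 and 11355 in C4BPD wells. It read 10958, 11485, 11488, 11968 and 12079.8 in IAPP wells, against 9785, 10828, 10691, 11284 and 10725 in DMSO wells. All C4BP arrays were above all DMSO arrays and all C4BPD arrays, and IAPP wells overlapped both C4BP and DMSO wells. Means were 12160.0 ± 485 in C4BP, 11029 ± 511 in C4BPD, 11596 ± 448 in IAPP and 10663 ± 545 in DMSO wells (SD, n = 5 each). The C4BP to DMSO ratio was 1.14 (log2 difference 0.19; 95% interval 0.10 to 0.28; limma, adjusted p = 0.0112). IAPP against DMSO gave 0.12 (0.03 to 0.22; adjusted p = 0.197), C4BP against C4BPD 0.14 (0.05 to 0.23; adjusted p = 0.119) and C4BPD against DMSO 0.05 (-0.04 to 0.14; adjusted p = 0.737). The array numbered 1 was the lowest of its group for Ftl1 in all 4 groups, and it also had the lowest array median in all 4. With the replicate numbers as a block, an alternative fit, Ftl1 passed in IAPP vs DMSO (limma, adjusted p = 0.00624) and in C4BP vs C4BPD (adjusted p = 0.00265). It did not pass with the block in C4BPD vs DMSO or C4BP vs IAPP. Whether Ftl1 passed thus depended on how the numbers were treated. The part of number 1 in the Ftl1 differences was not tested beyond the fits named here and in the closing section.

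Fth1, the ferritin heavy chain with the ferroxidase site, passed in no comparison. Its brighter probe set ranged from 7692 to 8378 in C4BP, 7511 to 8244 in C4BPD, 7645 to 8269 in IAPP and 7254 to 8212 in DMSO wells, so all 4 groups overlapped. Differences lay between -0.01 (C4BP vs IAPP) and 0.06 (IAPP vs DMSO; 95% interval -0.03 to 0.14). The dimmer Fth1 probe set gave -0.01 in IAPP vs DMSO and 0.02 in C4BP vs DMSO, also without a call. Ferritin genes have close copies in rodent genomes, and whether their probes pick up such copies was not tested. Ncoa4, the receptor that takes ferritin to lysosomes, averaged 2610 ± 104 in C4BP, 2563 ± 55.3 in C4BPD, 2444 ± 95.5 in IAPP and 2499 ± 64.7 in DMSO wells (SD, n = 5 each). Its C4BP vs IAPP difference was 0.09 (95% interval 0.02 to 0.17; limma, adjusted p = 0.43), and the other 4 lay between -0.03 and 0.06.

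Slc40a1, ferroportin, is the one known iron exporter of the cell membrane. In replicate order, the Slc40a1 probe set read 587, 544, 656, 629 and 536 in C4BP wells and 502, 484, 518, 456 and 527 in C4BPD wells. It read 607, 531, 605, 584 and 559.7 in IAPP wells, against 495, 516, 451, 544 and 538 in DMSO wells. C4BP arrays were all above C4BPD arrays, and C4BP and DMSO wells overlapped in the range from 536 to 544. Means were 591 ± 52.3 in C4BP, 497 ± 28.2 in C4BPD, 577 ± 32.3 in IAPP and 509 ± 37.6 in DMSO wells (SD, n = 5 each), so C4BP and IAPP wells had the higher means. C4BP exceeded C4BPD wells by 0.25 on the log2 scale (95% interval 0.11 to 0.38; limma, adjusted p = 0.0414) and DMSO wells by 0.21 (0.08 to 0.35; adjusted p = 0.0499). IAPP against DMSO gave 0.18 (0.05 to 0.32; adjusted p = 0.153). Both calls sat at the threshold. The call against DMSO remained in 5 of 20 fits without 1 array (those without C4BP 2, C4BP 5, C4BPD 4, IAPP 2 or DMSO 4), and the call against C4BPD was lost without C4BP 1, 3 or 4, C4BPD 1, 2, 3 or 4, IAPP 4 or 5, or DMSO 2, at adjusted p up to 0.15 and 0.12.

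The sensors did not move past the threshold in any comparison. Aco1, the cytosolic aconitase that becomes IRP1 when it loses its iron-sulfur cluster, averaged 1990.4 ± 53.3 in C4BP, 2020.4 ± 48.4 in C4BPD, 1955 ± 43.9 in IAPP and 2001 ± 58.5 in DMSO wells (SD, n = 5 each). Its 5 differences lay between -0.03 and 0.03 on the log2 scale. Ireb2, which holds no cluster and is controlled by degradation, averaged 1427 ± 78.4 in C4BP, 1484 ± 79.5 in C4BPD, 1453 ± 47.4 in IAPP and 1467 ± 64.8 in DMSO wells. Its differences ran from -0.06 to 0.02. Fbxl5, the iron-binding subunit of the ligase that acts on Ireb2, averaged 1414 ± 78.6 in C4BP, 1349 ± 72.2 in C4BPD, 1324 ± 26.8 in IAPP and 1327 ± 39.4 in DMSO wells. Its widest differences were 0.09 in C4BP vs IAPP (95% interval 0.00 to 0.18; limma, adjusted p = 0.608) and 0.09 in C4BP vs DMSO (0.00 to 0.18; adjusted p = 0.309). These intervals bound the mRNA differences and say nothing of protein or of RNA-binding activity.

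**Figure D2:**
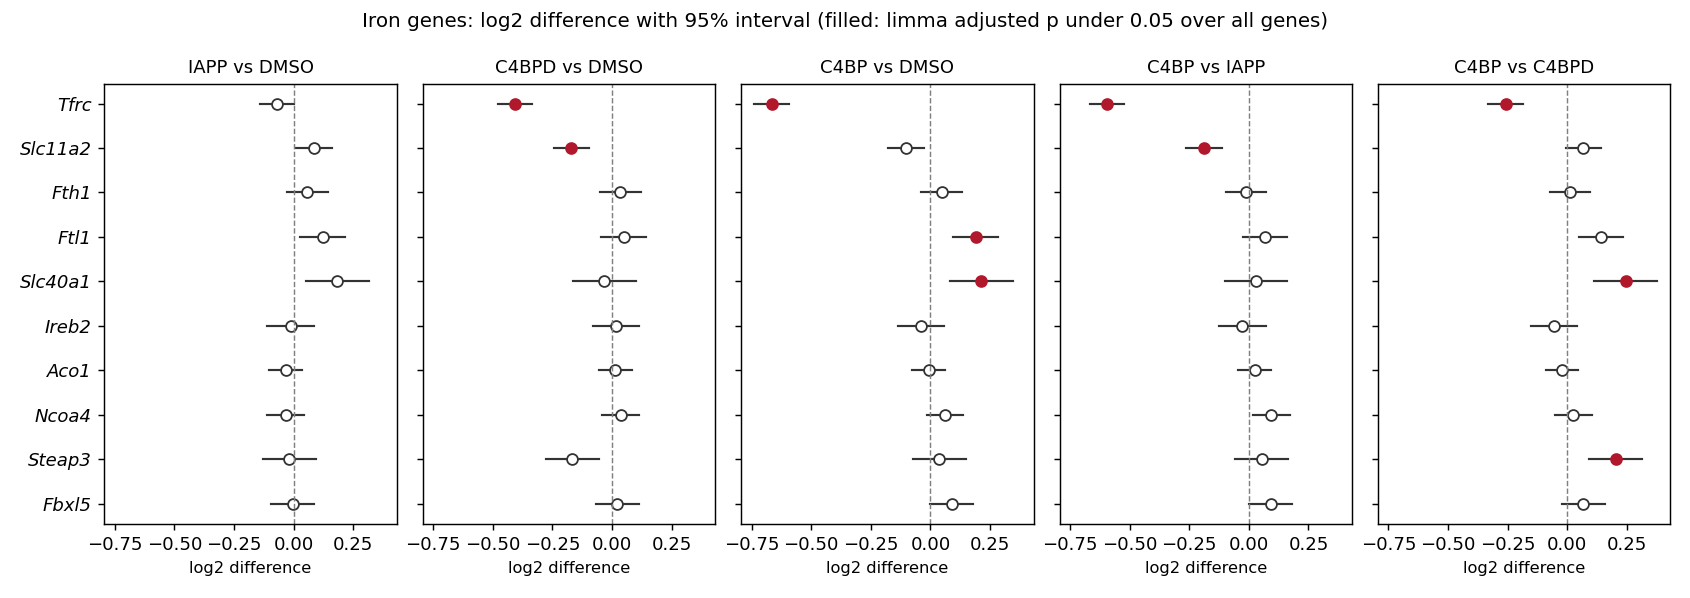
Log2 difference of each iron gene in 5 comparisons (point) with its 95% interval (line), where filled points had a limma adjusted p under 0.05 over all genes. Tfrc lies at -0.67 in C4BP vs DMSO, -0.60 in C4BP vs IAPP and -0.41 in C4BPD vs DMSO, while Fth1, Ireb2 and Aco1 lie close to 0 throughout.

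The median log2 difference over the 10 genes was 0.04 in C4BP vs DMSO, 0.02 in C4BPD vs DMSO, -0.01 in IAPP vs DMSO, 0.03 in C4BP vs IAPP and 0.05 in C4BP vs C4BPD, beside medians over all genes of 0.00, -0.01, 0.00, 0.00 and 0.01. The genes thus had no common direction, and the extremes were single genes. Spread between arrays of a group was small, with a coefficient of variation from 1.89% (Tfrc in IAPP wells) to 8.86% (Slc40a1 in C4BP wells).

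Other genes of iron traffic were listed by function, also with earlier results known, and 18 were measured. In C4BP vs DMSO 2 of them were higher, 1 lower and 15 did not pass, where 5.96% of all genes passed. Slc39a14 (ZIP14), a plasma-membrane importer of iron not bound to transferrin, averaged 953 ± 38.7 in C4BP, 972 ± 33.8 in C4BPD, 1078 ± 42.8 in IAPP and 1164 ± 104 in DMSO wells (SD, n = 5 each). It fell in C4BP vs DMSO (-0.28; limma, adjusted p = 0.00128) and in C4BPD vs DMSO (-0.26; adjusted p = 0.0092), and was the 1 of 18 past the threshold in C4BPD vs DMSO (1.93% of all genes). Mcoln1, a lysosomal cation channel that releases iron, rose by 0.22 in C4BP vs DMSO (adjusted p = 0.00101), and Slc25a28, a mitochondrial iron carrier, by 0.20 (adjusted p = 0.0119). In IAPP vs DMSO, C4BP vs IAPP and C4BP vs C4BPD 0 of 18 passed (3.38%, 0.606% and 2.37% of all genes), with 2, 2 and 6 at an unadjusted p under 0.05.

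The hepcidin axis, by which the liver controls ferroportin, had 10 genes measured. None passed in the 5 comparisons by limma, where 0.606% to 5.96% of all genes did, with 1 or 2 in each at an unadjusted p under 0.05. Hamp, the hepcidin gene, averaged 186. The 23 measured genes of iron-sulfur cluster assembly also had 0 past the threshold in each comparison, beside the same shares of all genes. At an unadjusted p under 0.05 they had 5 in C4BP vs DMSO, 1 in C4BPD vs DMSO, 2 in IAPP vs DMSO, 0 in C4BP vs IAPP and 2 in C4BP vs C4BPD. Their differences in C4BP vs DMSO ran from -0.11 to 0.17.

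Of 17 measured genes of heme synthesis, transport and breakdown, 3 were higher in C4BP vs DMSO, 2 in C4BP vs C4BPD, 1 in C4BP vs IAPP, 1 in IAPP vs DMSO and 0 in C4BPD vs DMSO, where 4 had an unadjusted p under 0.05, and none was lower in these 5 comparisons. Of all genes, 5.96%, 2.37%, 0.606%, 3.38% and 1.93% passed in these comparisons, in this order and in either direction. Hmox1, which opens the heme ring and frees its iron, averaged 533 ± 51.5 in C4BP, 260 ± 14.7 in C4BPD, 410 ± 38.3 in IAPP and 244 ± 7.32 in DMSO wells (SD, n = 5 each). It rose in C4BP vs DMSO (1.12; limma, adjusted p = 7.5e-10) and C4BP vs C4BPD (1.03; adjusted p = 2.49e-08). It also rose in IAPP vs DMSO (0.75; adjusted p = 7.96e-07) and C4BP vs IAPP (0.38; adjusted p = 0.00734). In C4BPD vs DMSO Hmox1 differed by 0.09 (adjusted p = 0.648). A link between Hmox1 and Tfrc was not tested. Slc48a1, a carrier that moves heme out of lysosomes, rose by 0.36 in C4BP vs DMSO (adjusted p = 0.000371), and by 0.24 in C4BP vs C4BPD (adjusted p = 0.0266), a call lost without C4BP 1, 2 or 5 or C4BPD 2, 3, 4 or 5 (adjusted p up to 0.0889). Blvrb, a biliverdin reductase, rose by 0.31 in C4BP vs DMSO (adjusted p = 0.00723).

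Among 15 measured regulators of iron gene transcripts and promoters, 1 was higher and 2 were lower in C4BP vs DMSO, 2 were higher in IAPP vs DMSO, and 0 passed in the other 3 comparisons, with 1 in C4BPD vs DMSO, 0 in C4BP vs IAPP and 4 in C4BP vs C4BPD at an unadjusted p under 0.05. Over all genes, 5.96% passed in C4BP vs DMSO, 3.38% in IAPP vs DMSO and 0.606% to 2.37% in the other 3. Bach1, the heme-binding repressor of Hmox1 and ferritin genes, rose in IAPP vs DMSO (0.27; limma, adjusted p = 0.0123) and in C4BP vs DMSO (0.23; adjusted p = 0.0191, lost without C4BP 1, C4BP 3 or DMSO 5 at up to 0.056). Myc, which activates the transferrin receptor gene in human cells, rose by 0.22 in IAPP vs DMSO (adjusted p = 0.0335, lost without IAPP 3, 4 or 5 or DMSO 1 or 2 at up to 0.105). Epas1, the hypoxia factor HIF-2alpha whose human mRNA carries an iron-responsive element, fell by 0.33 in C4BP vs DMSO (adjusted p = 0.0192, lost without C4BP 4, C4BP 5 or DMSO 1 at up to 0.0639). Zc3h12a (Regnase-1), a nuclease that cleaves Tfrc mRNA in mouse cells, fell by 0.18 in C4BP vs DMSO (adjusted p = 0.0372, lost without C4BP 1, 3 or 4 or DMSO 3, 4 or 5 at up to 0.116).

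Of 5 other measured mRNAs with an iron-responsive element described in human cells, 1 was higher and 1 lower in C4BP vs DMSO (5.96% of all genes passed), and 0 passed in the other 4 comparisons (0.606% to 3.38% of all genes), with 1 or 2 in each at an unadjusted p under 0.05. Those past the threshold were Epas1 and Cdc42bpa, a kinase, which rose by 0.18 (limma, adjusted p = 0.043, kept in 6 of 20 fits without 1 array, those without C4BP 2, C4BP 4, C4BPD 1, C4BPD 4, IAPP 1 or DMSO 1). Among 13 genes of defence against iron-dependent lipid peroxidation, 2 were higher in C4BP vs DMSO and 1 each in C4BPD vs DMSO and C4BP vs IAPP. In these comparisons 5.96%, 1.93% and 0.606% of all genes passed in either direction. Slc7a11, the cystine importer for glutathione synthesis, rose by 0.67 in C4BP vs DMSO (adjusted p = 0.00648), and Nqo1, a quinone reductase, by 0.66 in C4BP vs DMSO, 0.45 in C4BPD vs DMSO and 0.42 in C4BP vs IAPP (adjusted p up to 0.0043). In IAPP vs DMSO and C4BP vs C4BPD 0 of the 13 passed (3.38% and 2.37% of all genes), with 2 and 3 at an unadjusted p under 0.05.

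**Figure D3:**
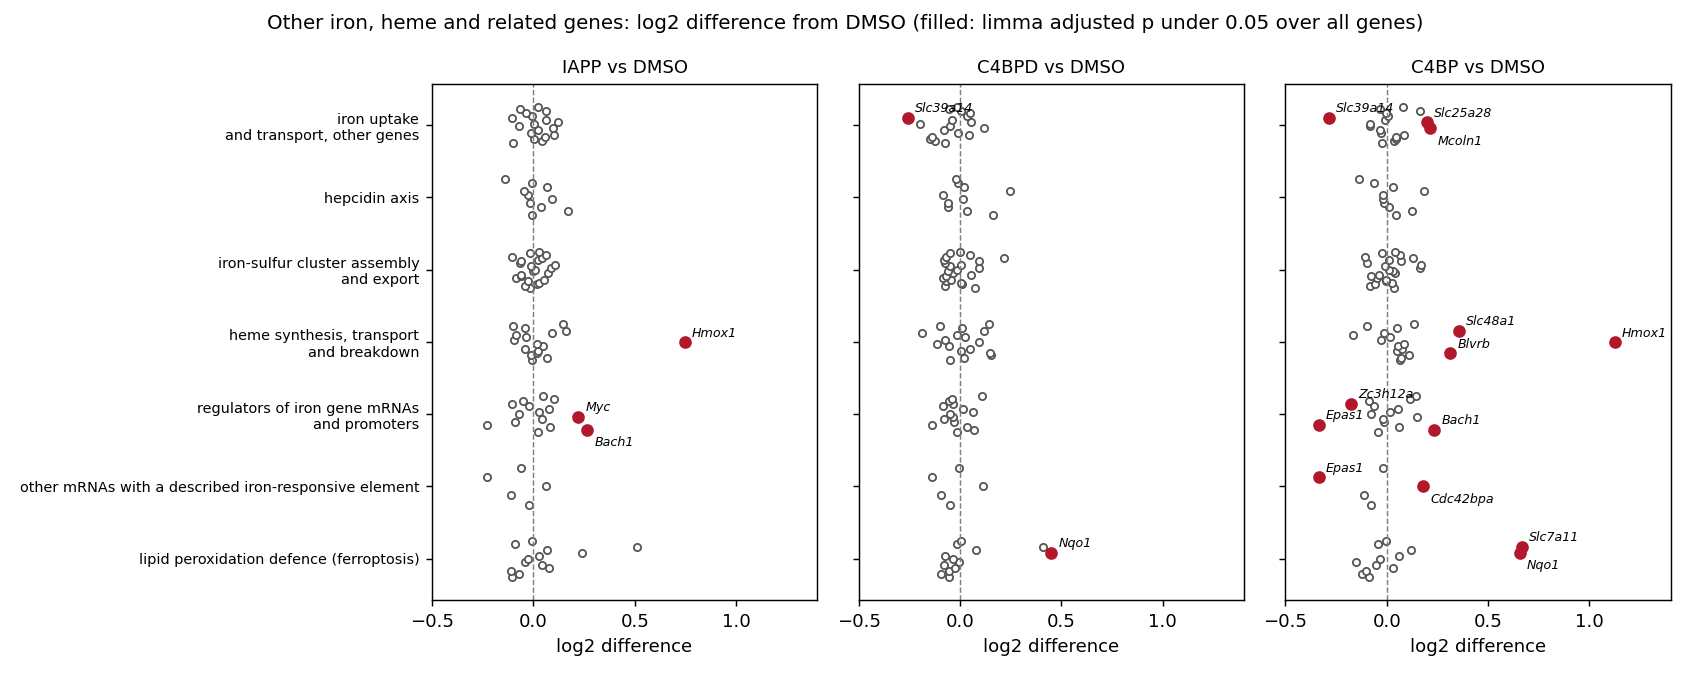
Log2 difference from DMSO for every measured gene (point) of 7 lists of iron, heme and related genes, in IAPP, C4BPD and C4BP wells, with filled and named points at a limma adjusted p under 0.05 over all genes. Hmox1 is farthest right in IAPP (0.75) and C4BP wells (1.12), Slc39a14 is filled and left of 0 in C4BPD and C4BP wells, and the hepcidin and iron-sulfur lists have no filled point.

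The genes whose log2 values over the 20 arrays were most like those of Tfrc were Rgs16 (Pearson r = 0.921), Ankrd37 (0.916), Pfkfb3 (0.91), Slc36a4 (0.901) and Mpp7 (0.9). These r are descriptions over 20 arrays that share 4 treatments. Rgs16, a regulator of G-protein signalling, differed in C4BP, C4BPD and IAPP wells from DMSO wells by -0.46, -0.33 and -0.20. Ankrd37, a gene induced in hypoxia in human cells, differed by -0.76, -0.65 and -0.19, and Pfkfb3, which makes an activator of glycolysis and is also induced in hypoxia, by -0.71, -0.47 and -0.25. For Tfrc these 3 values were -0.67, -0.41 and -0.07. Slc36a4, an amino acid transporter, had -0.22, -0.16 and -0.05.

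**Figure D4:**
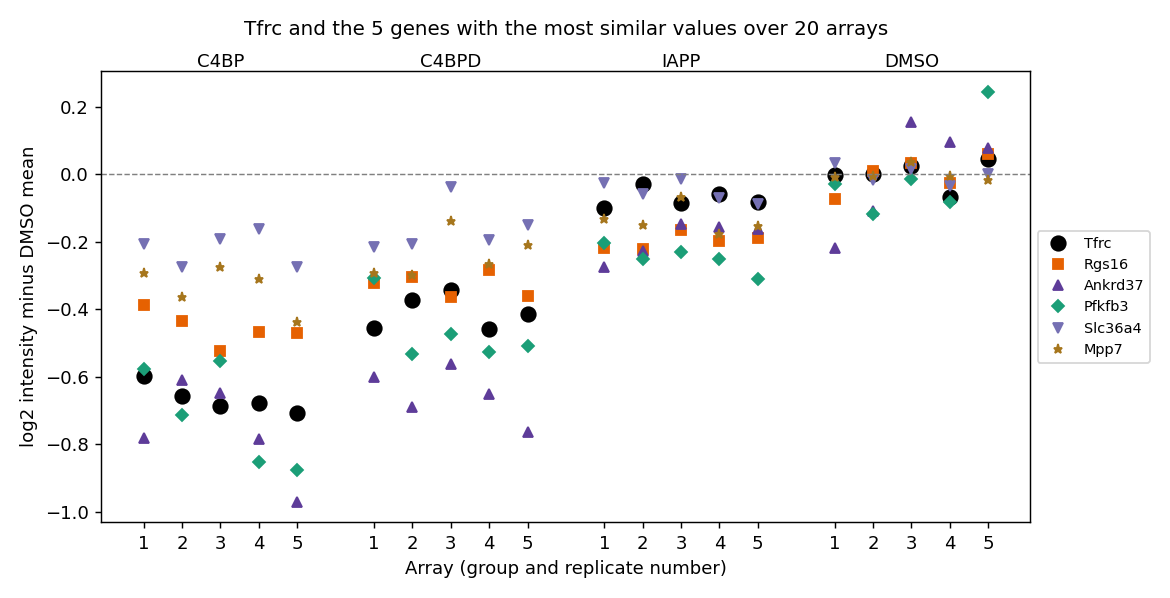
Log2 intensity minus the DMSO mean on each of the 20 arrays for Tfrc (large black circles) and the 5 genes with the highest Pearson r to it. All 6 genes have their lowest group mean in C4BP wells and the next in C4BPD wells, with Tfrc at -0.60 to -0.71 in C4BP wells and at -0.34 to -0.46 in C4BPD wells. The choice by r favours such a shared order.

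Promoter windows are shown for Tfrc and Slc11a2, the members with C4BP and C4BPD arrays below all others, and for Ankrd37 and Pfkfb3, the hypoxia-induced genes with a pattern like that of Tfrc. Sequences are from RefSeq on the GRCr8 build, cover the 250 bases before an annotated gene start and are written 5′ to 3′ on the gene's strand. Capitals mark ACGTG on either strand, which is 1 form of the core of the hypoxia response element. The form GCGTG was not counted. The Slc11a2 window below has it on the other strand, as CACGC, so a window without ACGTG may still hold a core.
Tfrc, chr11:81690319-81690568, minus strand: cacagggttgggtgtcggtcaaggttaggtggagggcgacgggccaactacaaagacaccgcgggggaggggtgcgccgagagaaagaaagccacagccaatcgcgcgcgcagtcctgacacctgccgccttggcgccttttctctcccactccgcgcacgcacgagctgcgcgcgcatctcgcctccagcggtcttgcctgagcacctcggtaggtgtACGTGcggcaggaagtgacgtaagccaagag
Slc11a2 (1 of 2 windows), chr7:133417789-133418038, minus strand: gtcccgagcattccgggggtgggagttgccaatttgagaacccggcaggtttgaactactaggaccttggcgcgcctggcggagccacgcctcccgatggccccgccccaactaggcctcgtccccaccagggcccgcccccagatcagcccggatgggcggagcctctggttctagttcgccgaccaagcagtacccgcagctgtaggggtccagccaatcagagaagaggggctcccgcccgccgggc
Ankrd37, chr16:53001257-53001506, plus strand: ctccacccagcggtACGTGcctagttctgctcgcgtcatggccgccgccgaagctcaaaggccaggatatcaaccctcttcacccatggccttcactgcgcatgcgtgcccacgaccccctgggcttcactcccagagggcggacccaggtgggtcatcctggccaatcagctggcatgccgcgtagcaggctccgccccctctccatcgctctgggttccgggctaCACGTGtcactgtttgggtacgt
Pfkfb3, chr17:71944683-71944932, plus strand: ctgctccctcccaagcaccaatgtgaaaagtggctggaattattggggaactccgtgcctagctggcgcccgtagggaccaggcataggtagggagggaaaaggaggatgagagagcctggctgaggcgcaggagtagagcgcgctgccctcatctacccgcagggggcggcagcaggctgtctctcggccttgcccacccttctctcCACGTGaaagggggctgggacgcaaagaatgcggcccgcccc

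The Tfrc window held 1 ACGTG, with its first base 31 bases before the gene start. Ankrd37 held 3 matches and Pfkfb3 2, of which each has a pair that is the palindrome CACGTG read on both strands, and neither Slc11a2 window held any. The windows of Rgs16, Slc36a4 and Mpp7, the other 3 of the 5 genes most like Tfrc, held 0 matches to ACGTG. Those of Rgs16 and Slc36a4, like the Slc11a2 window shown, do hold the form GCGTG on either strand, which was not counted. ACGTG on either strand was present in 16.6% of the 33469 rat promoter windows of the same length. Windows were given for 8 of the 10 members, Fth1 and Ftl1 being the others, and Ncoa4 and Fbxl5 were the further members with ACGTG. The antioxidant response element TGACNNNGC, through which NRF2 acts, was found on either strand in Ncoa4 alone of these 8, at a background of 10.1%, and CACGTG in Fbxl5 alone, at 5.59%. Motifs were chosen with the expression results known, and a match is not evidence of binding.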

How the data were processed

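RNA of INS-1 wells was hybridised to Affymetrix Rat Gene 2.0 arrays with a biotin label, per the labels' protocols. The deposited intensities, 1 value per probe set and array, were normalized by the authors and are linear (4.73 to 18574). The submitters' processing notes name Affymetrix Expression Console. For this software, neither version nor algorithm is given in the sources used here. Groups came from the titles. Of 36685 probe sets, 190 controls were left out, 18511 had 1 symbol in the GEO platform annotation, 575 several and 17409 none. Each of 18166 genes was represented by its brightest single-symbol probe set. Values were taken as log2 with no further scaling or filter, and 1 model with 4 group means (16 residual degrees of freedom) was fitted with limma 3.58.1 in R 4.3.3, two-sided, adjusted by Benjamini-Hochberg over all genes, threshold 0.05, with intervals at 95%. The code was tested on simulated data. Group means are of intensity, and ratios are of geometric means.

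Members, gene lists, tests and motifs were chosen with earlier results of these data known. All members are named. From each list up to 4 genes past the threshold per comparison are named, with Hmox1, cell-line markers and the 5 genes with the highest r to the member with the smallest F-test p. Promoter sequences are RefSeq's (GRCr8), matched by gene ID. No gene coordinates are given for the array, whose build is not stated. Alternatives were a replicate block, quantile normalization, centring, array weights, all probe sets, a filter on dim genes, the mean of a gene's probe sets, fitting only the groups compared, grouping by the treatment field, and leaving out each array or each number. Same-numbered arrays did not deviate together in every pair. Across genes, deviations from group means correlated over 0.1 in 2 to 4 of 5 pairs per comparison, with medians from 0.0945 to 0.318. The numbers were therefore not taken as pairs in the fit reported above. Yet 16 of 20 arrays correlated best with an array of their own number, and the titles number the arrays in sets by replicate. A shared effect of the numbers therefore remains possible, and the block is given as an alternative. Figures used Python 3.11.15 and matplotlib 3.10.9.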

Additional observations from a re-analysis of the deposited data

Results flagged for a closer look

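Of 40 sets of 5 arrays (10 iron genes in 4 groups), 2 held an array set apart from its group, where chance marks about 1 in 20. Ireb2 in DMSO 1 read 1354, below the next lowest DMSO array at 1476 (gap over range 0.763, critical value 0.71). Aco1 in C4BP 1 read 2082, above the next C4BP array at 1975 (0.766). Neither gene passed in any comparison.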

How the results depend on the processing

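The Tfrc calls in C4BP vs DMSO, C4BPD vs DMSO and C4BP vs C4BPD held in every alternative that kept the title groups. With the treatment field as the group label, 0 genes of the whole array passed in any comparison by limma (553 to 929 genes at an unadjusted p under 0.05), the counts of iron genes past the threshold were 0 in all 7 tests (1 at an unadjusted p in C4BPD vs DMSO and in C4BP vs DMSO), and 8 of the 10 iron-gene differences that had passed turned sign, namely Tfrc (0.22 in C4BPD vs DMSO, 0.33 in C4BP vs DMSO, 0.20 in C4BP vs IAPP, 0.12 in C4BP vs C4BPD), Slc11a2 (0.0282 in C4BPD vs DMSO, 0.0436 in C4BP vs IAPP), Ftl1 (-0.0516 in C4BP vs DMSO) and Slc40a1 (-0.0632 in C4BP vs C4BPD), none past the threshold. Of the 40 that had not passed, 25 turned sign too. The field follows the order of the sample records and not the titles, so each of its groups mixes title groups. The cause of the sign changes was not tested.

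The count of iron genes past the threshold was 1 in C4BPD vs DMSO, C4BP vs IAPP and C4BP vs C4BPD with arrays centred on the median, and 1 in these and in C4BP vs DMSO when only the 2 groups compared were fitted, which leaves fewer arrays. With all probe sets tested it was 1 in C4BP vs C4BPD and 2 in the F test. Without single arrays or numbers it ran from 1 to 2 in C4BPD vs DMSO and C4BP vs IAPP, 1 to 3 in C4BP vs DMSO and C4BP vs C4BPD, 2 to 5 in the F test and stayed at 0 in IAPP vs DMSO and the interaction. With the replicate block, 1 gene passed in IAPP vs DMSO, Ftl1 (0.12; adjusted p = 0.00624), Ftl1 also passed in C4BP vs C4BPD (adjusted p = 0.00265) and Slc11a2 in C4BP vs DMSO (adjusted p = 0.0224), while Slc40a1 in C4BP vs DMSO ended at 0.0504. The block moved the count over all genes from 614 to 1133 in IAPP vs DMSO. Of 20 arrays, 16 correlated best with an array of their own number. The running number in the titles also places the arrays of a replicate number next to each other. Titles do not say whether such arrays were handled together.

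In the 5 fits that left out all arrays of 1 number, most member calls other than those of Tfrc were lost. The Slc11a2 calls held in 1 of 5 (C4BPD vs DMSO) and 0 of 5 (C4BP vs IAPP), at limma adjusted p up to 0.104 and 0.133. The Ftl1 call held in 2 of 5, at up to 0.0859. Those of Slc40a1 held in 1 of 5 (C4BP vs DMSO) and 0 of 5 (C4BP vs C4BPD), and that of Steap3 in 0 of 5, at up to 0.324 among them. With only the compared groups fitted, Ftl1 ended at 0.0543, and Slc40a1 ended at 0.146 in C4BP vs DMSO and 0.121 in C4BP vs C4BPD. With arrays centred Slc40a1 ended at 0.13 and 0.109 in these comparisons, and with all probe sets tested at 0.112 and 0.101. Of 21 calls in the other lists, tried after their values were seen, 15 held without each single array, 12 in all 8 other alternatives and 9 without each number. Some that held without each single array were lost without numbers. Slc25a28 in C4BP vs DMSO and Bach1 in IAPP vs DMSO held in 1 of 5 such fits. Slc39a14 in C4BPD vs DMSO and Hmox1 in C4BP vs IAPP held in 2 of 5. Counts over all genes without single arrays or numbers ran from 235 to 686 in IAPP vs DMSO, 151 to 386 in C4BPD vs DMSO, 615 to 1188 in C4BP vs DMSO, 18 to 135 in C4BP vs IAPP and 200 to 522 in C4BP vs C4BPD, and under the other title-group alternatives from 438 to 1133, 208 to 797, 663 to 1884, 33 to 352 and 223 to 958. Signal over background limits Steap3, Slc40a1 and the other named genes under 1045, since 23 background probe sets averaged from 5.78 to 1045.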
